A study of Mus musculus with 5 samples.

Results

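The cells described here are C1q-low myeloid cells that carry transcripts of Arg1 or Nos2. They were chosen by UMI counts (unique molecular identifiers, each standing for 1 captured RNA molecule) in single-cell barcodes. Barcodes needed 200 or more genes and no more than 15% of UMIs from mitochondrial genes. Such a barcode was gated as myeloid when it held at least 5 Lyz2 UMIs and at least 1 UMI of Csf1r, Cd14 or Ccr2. Barcodes with 10 or more S100a8 and S100a9 UMIs, more than 1 Cd3 UMI, 10 or more Crabp1 UMIs, or at least 2 Acp5 UMIs together with Ctsk were left out. Within that gate a member had fewer than 5 UMIs of C1qa, C1qb and C1qc together and at least 2 UMIs of Arg1 and Nos2 together. The rule found 102 of 9565 filtered barcodes, 23 from the control and 79 from the anti-CTLA-4 mice.

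The study profiled BALB/c mice inoculated with CT26, a mouse colon carcinoma line, and given either phosphate-buffered saline or an antibody that blocks CTLA-4, an inhibitory receptor of T cells. All mice were 6 weeks old. Control mice received saline on days 5, 8 and 11 after inoculation, and treated mice received 100 µg of the anti-CTLA-4 clone 9H10 into the peritoneum on the same days. Mice were killed on day 13, and the material is named only as tissue, dissociated with a mouse tumour kit. Both groups share the tumour, grown under the skin, and neither carries a named transgene or deletion. Each group is 1 expression library of unstated animal number, so no difference between groups could be tested, and every interval here covers counting error within a library only. UMIs of 1 barcode are also not independent draws, so the intervals of ratios are too narrow.

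Arg1 encodes arginase, which cleaves arginine to ornithine and urea, and Nos2 encodes the inducible nitric oxide synthase, which turns the same amino acid into citrulline and nitric oxide. In mouse macrophages Arg1 is known as a product of interleukin-4, hypoxia and lactate signals, and Nos2 as a product of interferon-gamma with bacterial or cytokine signals. C1q, the recognition subunit of the classical complement pathway, is made by mature tissue macrophages, whereas blood monocytes make little of it. Arginine use by myeloid cells of tumours is known for limiting T cells nearby.

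The 4 populations of the myeloid gate came from a split by C1q and by Arg1 with Nos2. The control library held 86478313 UMIs in 5649 barcodes, and the anti-CTLA-4 library 19989467 UMIs in 4186 barcodes. Of the barcode sequences, 20 occurred in both libraries, 1 of them on a member of the anti-CTLA-4 library, and no sequence was a member in both. The members themselves held 106179 UMIs in the control library, with a median of 4284 per barcode (range 1356 to 11393). In the anti-CTLA-4 library they held 548059 UMIs, with a median of 6491 (range 554 to 25760). Free RNA, estimated from 23 genes of other cell types, was put at 19.2% of the UMIs of the control members, from 22 UMIs of these genes. For the anti-CTLA-4 members it was put at 1.09%, from 55 UMIs. Over the 4 populations the estimate ran from 12.8% to 19.2% in the control library and from 0.587% to 56.4% in the anti-CTLA-4 library. It is thus not a share common to all barcodes of a library. The part that depth and free RNA play in the differences between the libraries was not tested.

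Members were compared with their label. Lyz2, the lysozyme gene of phagocytes, was at 77.7 UMIs per 10000 in the control members and 82.1 in the anti-CTLA-4 members. Vegfa, the endothelial growth factor, is a marker of the label that the rule did not use. It stood at 2.26 per 10000 (95% Poisson interval 1.45 to 3.36) in the control members and 5.46 (4.86 to 6.11) in the anti-CTLA-4 members. C1q-low barcodes without Arg1 or Nos2 had 1.67 and 3.98 per 10000, and C1q-high barcodes with Arg1 or Nos2 had 1.34 and 5.46. Barcodes were also thinned to 2000 UMIs, with shallower ones left out. Then 4 of 21 control members and 64 of 269 C1q-low barcodes without Arg1 or Nos2 held Vegfa. Under anti-CTLA-4 these were 31 of 65 and 49 of 104. Vegfa was thus present in all of these populations. By level it did not set the members apart from C1q-high barcodes of the anti-CTLA-4 library. By thinned share it did not set them apart from C1q-low barcodes without Arg1 or Nos2.

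Markers of other cell types were mostly low. T cell markers summed to 3 UMIs in the control members and 7 in the anti-CTLA-4 members, mast cell markers to 0 in both, and Epcam, Krt8 and Krt18 were at 0. The neutrophil genes Ly6g and Cxcr2 and the dendritic cell genes Flt3, Xcr1, Clec9a and Ccr7 were at 0 in both libraries. All 99 NK cell UMIs of the control members were in 1 barcode, and 299 of the 311 fibroblast UMIs of the anti-CTLA-4 members were in another. The tissue macrophage list differed between libraries, at 131 UMIs per 10000 in the control members and 38.4 in the anti-CTLA-4 members. Monocyte markers were at 45.9 and 30.9 per 10000. Of the remaining lists, tumour-like markers were at 4.52 and 0.639 per 10000, osteoclast-like markers summed to 28 and 241 UMIs, neutrophil markers to 8 and 145, endothelial markers to 6 and 32, B cell markers to 0 and 16 and keratinocyte markers to 5 and 6.

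The members made up a larger share of the anti-CTLA-4 library. They were 3.16% of the 729 gated myeloid barcodes in the control library (exact binomial interval 2.01 to 4.70) and 26.7% of the 296 in the anti-CTLA-4 library (21.7 to 32.1), a ratio of 8.46. Of all filtered barcodes they were 0.420% and 1.93%. After every gated barcode was thinned to 3000 UMIs and shallower ones were left out, 13 of 487 and 45 of 218 barcodes met the rule, a ratio of 7.73. A share of 1 library per group is a description of these libraries, and fewer cells of other types and more of this one cannot be told apart.

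The share of barcodes with Arg1 or Nos2 was higher in the anti-CTLA-4 library on each side of the C1q split. Among C1q-low myeloid barcodes the share was 6.78% (23 of 339) in the control library and 40.7% (79 of 194) under anti-CTLA-4. Among C1q-high ones it was 15.6% (61 of 390) and 34.3% (35 of 102). C1q-low barcodes without Arg1 or Nos2 took similar shares of the gate, 43.3% and 38.9%, and C1q-high barcodes without took 45.1% and 22.6%. C1q-high barcodes with Arg1 or Nos2 were 1.11% and 0.857% of all filtered barcodes, so their number was not larger in the anti-CTLA-4 library. In the control library the C1q-high share was the higher one (interval 12.2 to 19.6 against 4.35 to 10.0). Under anti-CTLA-4 these intervals overlapped (25.2 to 44.4 and 33.7 to 48.0).

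**Figure D1:**
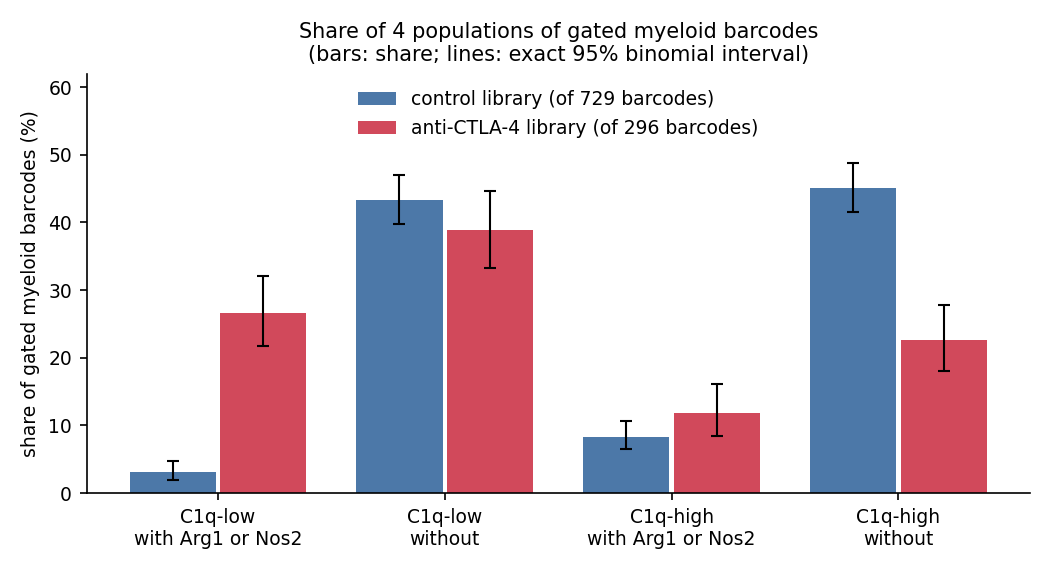
Share of gated myeloid barcodes (percent, y axis) in each of the 4 populations for the control and the anti-CTLA-4 library, with exact 95% binomial intervals as error bars. The C1q-low population with Arg1 or Nos2 is at 3.16% in the control library and 26.7% in the anti-CTLA-4 library.

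Arg1 and Nos2 UMIs chose the members, so their levels describe the rule. Arg1 (mouse chromosome 10, 24915221 to 24927484, minus strand, GRCm38) was at 10.9 per 10000 (9.03 to 13.1) in the control members and 28.2 (26.8 to 29.7) in the anti-CTLA-4 members. Control members held 0 to 17 Arg1 UMIs each, with a median of 3, and anti-CTLA-4 members 0 to 125, with a median of 10. Nos2 (chromosome 11, 78920787 to 78960254, plus strand) was at 0.565 per 10000 (0.207 to 1.23) and 3.05 (2.60 to 3.55). Members in both libraries were mainly Arg1 cells, and those of the anti-CTLA-4 library held more Arg1 per barcode.

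No control member carried both transcripts. In that library 21 of 23 members had Arg1 alone and 2 had Nos2 alone, with 3 Nos2 UMIs each. In the anti-CTLA-4 library 51 of 79 had Arg1 alone, 26 had both and 2 had Nos2 alone, and the highest Nos2 count in a barcode was 30. Of the latter 2, the barcode with 14 Nos2 UMIs is the barcode that held 299 fibroblast UMIs. The barcodes with both were deeper, with a median of 7765.5 UMIs against 5189 for Arg1 alone. After thinning to 2000 UMIs, 15 of 65 anti-CTLA-4 members still had both and 0 of 21 control members did, which with the exact binomial method allows a share of up to 16.1% in the control library.

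**Figure D2:**
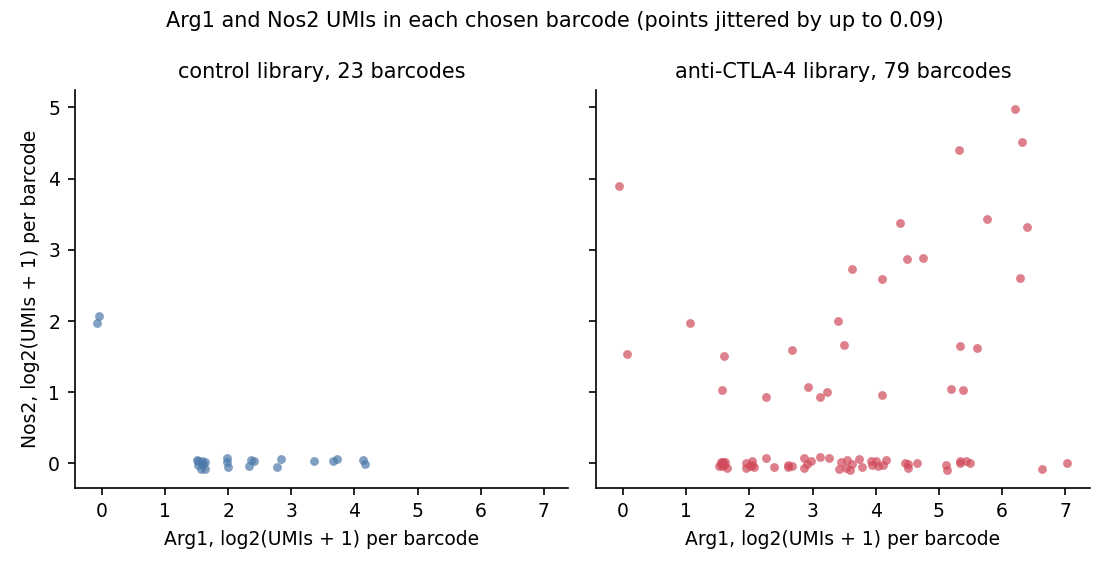
Arg1 UMIs (x axis) and Nos2 UMIs (y axis) of each member barcode, both as log2 of the count plus 1 with a small offset to separate points, with 1 panel per library. All 23 control points lie on an axis, and 26 of the 79 anti-CTLA-4 points lie away from both.

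Members near the thresholds were counted. With Arg1 and Nos2 summing to exactly 2 there were 8 control and 9 anti-CTLA-4 members, with 3 to 9 there were 11 and 25, and with 10 or more there were 4 and 45. Just outside, at a sum of 1, lay 17 and 8 C1q-low barcodes. C1q was at 0 in 17 of 23 and 63 of 79 members, and 3 and 6 barcodes lay just outside at 5 to 9 C1q UMIs. A larger part of the control members thus lay near the Arg1 and Nos2 limit.

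The anti-CTLA-4 members had higher levels of Slpi, Mmp12 and Inhba, among others, and lower levels of tissue macrophage genes than the control members. Of 1779 genes with at least 50 UMIs over both sides and no part in the rule, 10.2% were at least 2-fold higher and 4.33% at least 2-fold lower. This limit was on the sum, and the anti-CTLA-4 members held 548059 UMIs against 106179 in the control members. A gene high in the anti-CTLA-4 members could thus pass more easily, so the 2 percentages cannot be set against each other. The genes named next were chosen by the interval bound nearest to a ratio of 1. The median log2 ratio of all 1779 genes was -0.01.

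Mmp12, the macrophage elastase, lies on chromosome 9 (7344381 to 7369499, plus strand). It had 662 UMIs in the anti-CTLA-4 members and 6 in the control members, levels of 12.1 and 0.565 per 10000 and a ratio of 21.4 (9.77 to 58.5). The UMIs came from 31 of 79 barcodes and 1 of 23. Thinned to 2000 UMIs, 20 of 65 barcodes (interval 19.9% to 43.4%) and 1 of 21 (0.120% to 23.8%) kept one. These intervals overlap. Members were chosen before thinning, so the part of depth was not tested. Of C1q-low barcodes without Arg1 or Nos2, 25 of 269 and 13 of 104 had it. Of T cell barcodes (at least 2 Cd3 UMIs and under 5 Lyz2 UMIs), which should lack it, 0 of 210 had it in the control library and 6 of 1826 in the other.

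Slpi, a secreted inhibitor of neutrophil elastase, lies on chromosome 2 (164354070 to 164389095, minus strand). It had 675 UMIs in the anti-CTLA-4 members and 3 in the control members, a ratio of 43.6 (14.9 to 212), and 34.9 without its top barcode. Inhba, the subunit of activin A, lies on chromosome 13 (16011851 to 16031621, plus strand) and had 526 and 9 UMIs, a ratio of 11.3 (5.92 to 24.9), in 46 of 79 and 2 of 23 barcodes. Slpi was in 37 of 79 anti-CTLA-4 members, and 28 barcodes held both genes. Thinned to 2000 UMIs, 1 and 2 of 21 control members held Slpi and Inhba, and 25 and 34 of 65 anti-CTLA-4 members did. Both genes were also present in thinned C1q-low barcodes without Arg1 or Nos2. Of these, 64 of 269 in the control library and 37 of 104 in the other held Slpi, and 44 of 269 and 36 of 104 held Inhba, so the low shares were those of the control members.

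Several genes were at 0 in the control members and met the UMI limit through the anti-CTLA-4 members alone. Sdc1, the proteoglycan syndecan-1, had 224 UMIs in 46 anti-CTLA-4 barcodes, which is at least 14.5-fold higher when 3 UMIs over the group are taken for the control members, and its exact interval begins at 11.7. Ly6i, a surface protein gene of the Ly6 family, had 115 UMIs in 28 barcodes and was at least 7.43-fold higher by the same floor (interval from 5.94). Ptges, the prostaglandin E synthase, had 79 UMIs in 18 barcodes, at least 5.10-fold higher (interval from 4.05). Plpp3, a lipid phosphatase, and Fbxo32, a ubiquitin ligase subunit, had 74 and 72 UMIs. These genes were spread over 18 to 46 barcodes, and no barcode held over 22.8% of any of them.

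Cd9, a tetraspanin, had 333 and 5 UMIs, a ratio of 12.9 (5.47 to 40.0). F10, coagulation factor X, had 146 UMIs in 45 barcodes and 1 UMI in the control members, a ratio of 28.3 with an interval from 5.00 to 1125. The control side of both was thin, and the interval of F10 shows it. C1q-low barcodes without Arg1 or Nos2 also held both genes. In the control library 107 of 316 had F10 and 124 had Cd9, and in the other 63 and 62 of 115. The low shares were thus those of the control members, with F10 in 1 and Cd9 in 4 of 23.

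Genes of resident macrophages were lower in the anti-CTLA-4 members. Mrc1, the mannose receptor, lies on chromosome 2 (14229392 to 14332057, plus strand). It was at 0.639 per 10000 in the anti-CTLA-4 members and 9.32 in the control members, a ratio of 0.068 (0.045 to 0.102), with UMIs in 13 of 79 and 19 of 23 barcodes. Thinned, 5 of 65 and 14 of 21 barcodes had Mrc1. Of T cell barcodes 0 of 1826 and 2 of 210 had it, so the control share was far above the level of T cell barcodes.

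Ms4a7, a membrane protein of macrophages, had a ratio of 0.099 (0.072 to 0.136), and its relative Ms4a4a 0.174 (0.135 to 0.224). Stab1, a scavenger receptor, was at 0.137 (0.211 without its top barcode), Selenop, the selenium carrier, at 0.155, and Lgmn, the lysosomal protease legumain, at 0.234. Ifitm2, an antiviral membrane protein, was at 0.244. Lgmn and Ifitm2 had UMIs in 23 of 23 control members, and 56 and 57 of 79 anti-CTLA-4 members.

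Of 13 measured chemokine ligands, 5 were at least 2-fold lower and 2 at least 2-fold higher in the anti-CTLA-4 members. Over all genes tested in this comparison, 4.33% were at least 2-fold lower and 10.2% higher. The higher chemokines were Ccl5, at 3.10, and Cxcl3, at 2.60. Single control barcodes held much of the UMIs of the lower ones. Ccl8 had 515 UMIs in the control members, of which 496 were in 1 barcode, and its ratio of 0.011 became 0.296 without that barcode. Ccl7 and Ccl2, ligands of Ccr2 on monocytes, had ratios of 0.066 and 0.089. Without their top control barcodes these were 0.114 and 0.160. With estimated free RNA taken off, the direction of Ccl2 was opposite, so its direction depended on that estimate.

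**Figure D3:**
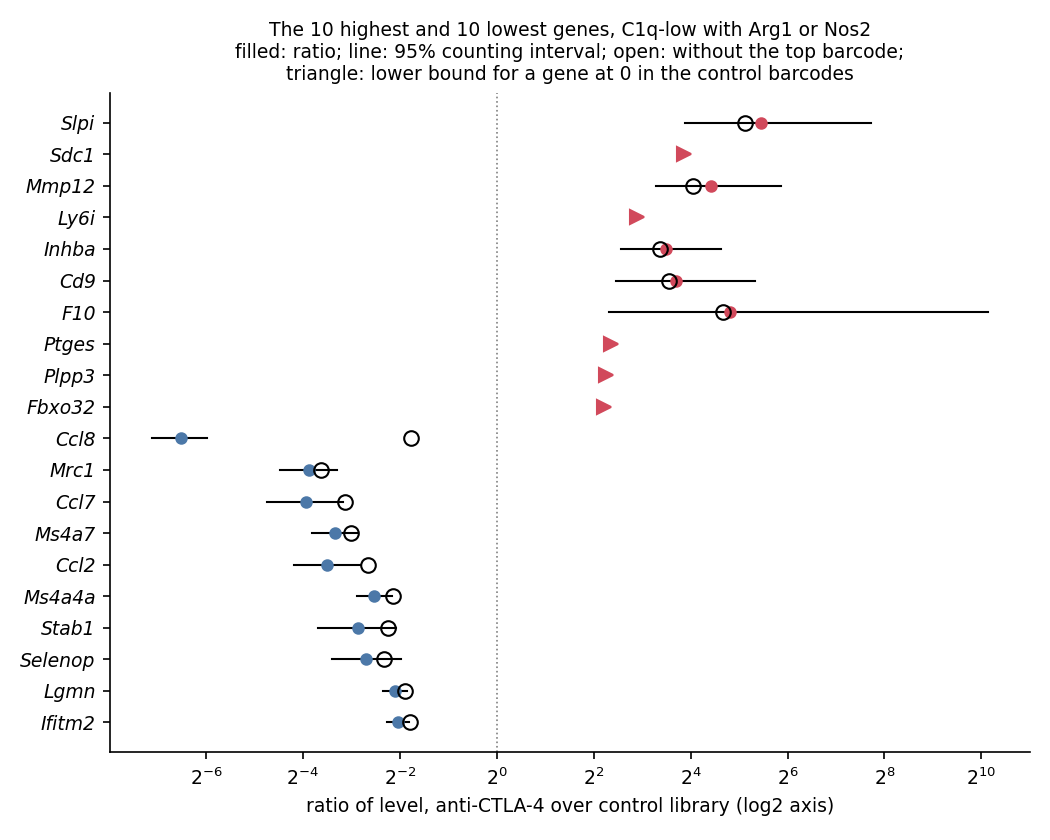
Ratio of the level in anti-CTLA-4 members to that in control members (x axis, log scale) for the 10 named genes in each direction, with exact 95% intervals for counting error. Triangles mark lower bounds for genes at 0 in the control members; Slpi is at 43.6 and Mrc1 at 0.068.

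The tissue macrophage marker list moved with these genes: 5 of its 7 measured members were at least 2-fold lower in the anti-CTLA-4 members and its median log2 ratio was -1.93. Over all genes tested 4.33% were lower. Monocyte markers had a median of -0.60. In the anti-CTLA-4 members, 13 barcodes had Mrc1 and 46 had Inhba, and 6 had both. In the control members, 19 had Mrc1 and 19 had Pf4, and 18 had both. The control members thus carried Pf4 and Mrc1 together in most barcodes although C1q was below 5 UMIs in each, and the part of free RNA or of a different mix of cells was not tested.

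Members were then compared with C1q-low myeloid barcodes of the same library that held fewer than 2 Arg1 and Nos2 UMIs, called without Arg1 or Nos2 throughout. Medians per barcode were 4284 and 3977 UMIs in the control library, and 6491 and 6636 UMIs under anti-CTLA-4. Genes tested had at least 50 UMIs over both sides together. Members held 106179 UMIs in the control library against 1387298 in the other barcodes, and 548059 against 783816 under anti-CTLA-4. A gene high in the other barcodes could thus be tested through them alone, mainly in the control library. The shares that follow are therefore a description. In the control library 5.86% of genes tested were at least 2-fold higher and 12% at least 2-fold lower. The anti-CTLA-4 library had 4.79% and 4.82%. In both libraries at once, 0.683% of 2929 genes (20) were at least 2-fold higher and 1.81% (53) at least 2-fold lower.

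Pdpn, the glycoprotein podoplanin, lies on chromosome 4 (143267431 to 143299564, minus strand). It was at 4.90 per 10000 in the control members and 0.685 in the C1q-low barcodes without Arg1 or Nos2, a ratio of 7.15 (5.00 to 10.1). In the anti-CTLA-4 library the levels were 3.83 and 0.714 and the ratio 5.36 (3.98 to 7.34). It was detected in 14 of 23 and 53 of 79 members, against 44 of 316 and 19 of 115 of the other C1q-low barcodes, so it was the more common in members of both libraries.

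Pgf, placental growth factor of the Vegfa family, had ratios of 3.39 and 8.48. It sat in few members, 6 of 23 and 14 of 79, and without its top barcode the ratios were 1.74 and 5.47. Rgcc, a cell cycle regulator, had ratios of 4.84 and 2.99, and Maf, a macrophage transcription factor, 3.15 and 2.86. Plau, the urokinase, had 3.44 and 2.57, the latter 1.54 without its top barcode. Pf4, the chemokine Cxcl4, had 8.41 and 2.35. These 5 genes were higher in the members of both libraries, with intervals above 1 in each.

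Ctsl, cathepsin L, had ratios of 2.88 (2.60 to 3.18) and 2.32 (2.15 to 2.49), and UMIs in 23 of 23 and 71 of 79 members. Ctsd, cathepsin D, had 2.40 and 2.00, the latter just under the 2-fold limit, and Fabp5, a fatty acid carrier, 2.16 and 2.19. Fn1, fibronectin, had 2.66 and 2.05, but 38 of its 60 control UMIs were in 1 barcode and the control ratio without it was 0.974.

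Most monocyte markers were lower in members of both libraries. Ly6c2 and Ly6c1, which encode the Ly6C antigen of inflammatory monocytes, had ratios of 0.142 and 0.073 in the control library and 0.192 and 0.226 in the anti-CTLA-4 library. Plac8, a gene of monocytes, had 0.278 and 0.186, and Ms4a4c 0.205 and 0.306. Of the 10 measured monocyte markers, 6 and 7 were at least 2-fold lower and 2 in each library at least 2-fold higher, with median log2 ratios of -1.21 and -1.34. The higher ones were Fn1 in both libraries, F13a1 in the control library at 2.75 and Ly6a in the other at 4.64. In the 2 libraries, 12% and 4.82% of all genes tested were lower, and 5.86% and 4.79% higher. Ifitm6, another monocyte gene, had no UMI in the control members and 2 in the anti-CTLA-4 members. Ifitm3 and Samhd1, genes of antiviral defence, had 0.351 and 0.308 in the control library and 0.467 and 0.399 in the other.

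MHC class II genes, which present antigen to CD4 T cells, were lower than in other C1q-low barcodes. Of 8 measured genes, 6 were at least 2-fold lower in the control library and 4 in the anti-CTLA-4 library, and 4 in both (H2-Aa, H2-Ab1, H2-Eb1 and H2-DMb2). Over all genes tested these shares were 12%, 4.82% and 1.81%. H2-Eb1, a beta chain, had ratios of 0.319 and 0.384, and H2-Aa, an alpha chain, 0.411 and 0.455. H2-Ab1 was at 15.1 per 10000 in the control members against 47.0, and at 18.1 against 37.8 in the anti-CTLA-4 library. In the control members 73 of its 160 UMIs were in 1 barcode. The list's median log2 ratio was -1.28 and -0.92, where that of all genes tested was 0.07 and 0.03. Between the 2 sets of members, anti-CTLA-4 against control, the median was 0.19.

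Measured type I interferon genes were mostly lower in members than in the other C1q-low barcodes. The difference between libraries was not tested. Of 21 measured type I interferon response genes, 20 were at least 2-fold lower than in the other C1q-low barcodes of the control library. Their median log2 ratio was -2.16. Such genes could reach the limit of 50 UMIs through the other barcodes alone, as Rsad2 did in the control library. These counts are thus a description. Of 11 measured in the anti-CTLA-4 library, 2 were at least 2-fold lower and 3 had ratios above 1, with a median of -0.69. Lower genes were 12% of all genes tested in the control library and 4.82% in the other. Rtp4, a receptor transporter, had ratios of 0.20 and 0.35. Rsad2, the antiviral enzyme viperin, had no UMI in the control members and a ratio of 0.311 in the anti-CTLA-4 library that became 0.998 without 1 barcode. Isg15, a ubiquitin-like protein, had 0.19 and 0.57. Its level in members was alike, 3.30 per 10000 in the control and 2.72 under anti-CTLA-4. The other C1q-low barcodes differed, at 17.5 and 4.73. Between the members of the libraries 1 of 5 measured genes of the list was at least 2-fold higher, 0 were lower and 4 had ratios below 1, with a median of -0.23. The interferon-gamma list had medians of -0.57 and -0.48.

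Most measured genes of the hypoxia response had ratios above 1. These are targets of HIF, the transcription factor that oxygen-sensing prolyl hydroxylases such as Egln3 mark for breakdown. Against other C1q-low barcodes, 3 of 14 measured genes were at least 2-fold higher in the control library. In the anti-CTLA-4 library 7 of 16 were higher and 1 lower, with median log2 ratios of 0.49 and 0.88. Higher genes were 5.86% and 4.79% of all genes tested in the control and the anti-CTLA-4 library. Among the 14 genes measured in both libraries, 11 had ratios above 1 in both. Bnip3, a mitophagy receptor, was the one gene 2-fold higher in both, at 2.20 (1.51 to 3.12) and 2.90 (2.28 to 3.72), and at 1.78 and 2.75 without its top barcode.

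Hilpda, a lipid droplet protein, had ratios of 1.63 and 2.91, the former 0.937 without its top barcode, and Mif, a cytokine, 1.30 and 3.43. P4ha1, a collagen prolyl hydroxylase, had 1.45 and 1.35 with intervals that include 1. Plin2, the lipid droplet coat, had 0.977 and 1.84. Against the control members, the anti-CTLA-4 members had 5 of 15 measured hypoxia genes at least 2-fold higher and 0 lower, a median log2 ratio of 0.67. Over all genes tested, 10.2% were higher and 4.33% lower. Egln3 had the farthest ratio, 10.5, with an interval from 1.80 to 421 that shows how few its control UMIs were. With members required to hold at least 5 UMIs of Arg1 and Nos2, which kept 7 and 59, that median was -0.42, so the difference in this list between the libraries depended on the Arg1 and Nos2 limit.

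The core letters of the HIF response element, ACGTG or CACGT on the other strand, were looked for in RefSeq promoter windows (GRCm38.p6), in the 250 bases before each start. Of 21 list genes, 19 had at least 1 window and 13 had the letters. Among windows, 14 of 26 (53.8%) of the list and 5444 of 32851 (16.6%) of all genes held them. Because the list holds known HIF targets, a higher share than over all genes follows from that choice and says nothing about these cells. A match is a description of letters, not of binding. The stretches below show 80 bases around the first match, 5′ to 3′ on the gene's strand, for the gene that was 2-fold higher in members of both libraries, for the hydroxylase with the farthest ratio between libraries, and for a gene whose intervals include 1 in both libraries. Capitals mark the matched letters.
Bnip3: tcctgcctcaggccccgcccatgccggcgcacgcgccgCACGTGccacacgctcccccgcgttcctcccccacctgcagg
Egln3: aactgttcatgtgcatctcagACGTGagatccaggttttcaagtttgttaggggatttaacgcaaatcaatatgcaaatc
P4ha1: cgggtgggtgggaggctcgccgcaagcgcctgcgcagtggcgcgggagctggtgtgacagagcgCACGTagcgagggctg

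The Bnip3 stretch is chr7:138909573-138909652 on the minus strand, and its capitals are 2 overlapping matches that begin 108 bases before the start. The Egln3 stretch is chr12:54204045-54204124 on the minus strand, with its match beginning 229 bases before the start. The P4ha1 stretch is chr10:59323216-59323295 on the plus strand, and its match begins 16 bases before the start. All of these stretches lie upstream of the gene as GENCODE M21 annotates it. The 3 matches differed in their distance from the start.

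Glycolysis genes differed less evenly, and the difference between libraries was not tested. Against other C1q-low barcodes 0 of 14 were at least 2-fold higher in the control library and 3 of 16 under anti-CTLA-4, with medians of -0.01 and 0.72. Over all genes tested these shares were 5.86% and 4.79%. Gapdh had ratios of 0.96 and 2.26, and Tpi1 1.30 and 2.06. Pgam1 had 1.56 and 1.65. Between the members of the libraries, 5 of 15 were at least 2-fold higher in the anti-CTLA-4 library, among them Gapdh at 3.47 and Eno1 at 2.76. In that comparison 10.2% of all genes tested were higher.

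Matrix and wound repair genes differed within the list. Against other C1q-low barcodes 4 of 14 measured genes were at least 2-fold higher and 2 lower in the control library. In the anti-CTLA-4 library 7 of 15 were higher and 1 lower. The shares over all genes tested were 5.86% higher and 12% lower in the control library, and 4.79% and 4.82% in the other. Timp2, Fn1 and Plau were at least 2-fold higher in both. Thbs1, thrombospondin, had 0.85 and 0.43. Mmp12 was at 1.1 per 10000 in other C1q-low barcodes of the anti-CTLA-4 library and 7.5 in C1q-high barcodes with Arg1 or Nos2 there, against 12.1 in members, so its high level was shared by both Arg1 and Nos2 populations of that library.

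**Figure D4:**
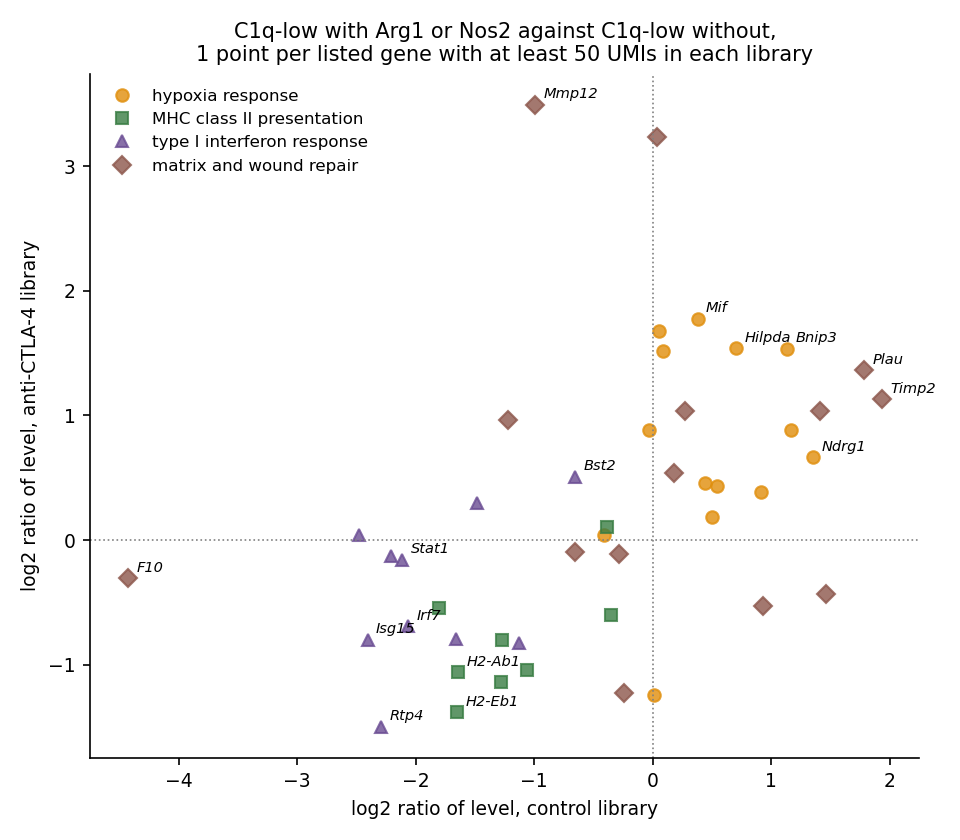
Log2 ratio of members to C1q-low barcodes without Arg1 or Nos2 in the control library (x axis) and in the anti-CTLA-4 library (y axis), with 1 point per gene of 4 lists measured in both. MHC class II points lie mostly below 0 on both axes and 11 of 14 hypoxia points above 0 on both.

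Other lists gave smaller or mixed medians. Their counts stand beside 5.86% higher and 12% lower over all genes tested in the control library, and 4.79% and 4.82% under anti-CTLA-4. Lipid handling genes were at least 2-fold higher in 6 of 12 measured in the control library and 1 of 13 under anti-CTLA-4, with medians of 0.95 and 0.57. MHC class I genes were lower in the control library (5 of 9, median -1.11) and had a median of 0.18 in the anti-CTLA-4 library. Alternative activation genes had 1.18 (4 of 7 higher, 1 lower) and -0.47 (1 of 5 higher, 1 lower), and Mrc1 of that list had ratios of 4.67 and 0.81. Tissue macrophage markers had 1.26 (6 of 9 higher) and -0.26 (1 of 8 higher, 2 lower). The lists of tissue macrophage and alternative activation genes therefore pointed up in the control members and not in the anti-CTLA-4 members.

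Arginine and nitric oxide genes outside the rule had mixed ratios. Of 10 measured, 0 were at least 2-fold higher and 2 lower in the control library, with a median of -0.39. Under anti-CTLA-4, 2 of 10 were higher and 0 lower, with a median of 0.24. Between the members of the libraries 2 of 8 were higher and 0 lower, with a median of 0.60. Over all genes tested, 5.86% were higher and 12% lower in the control library, and 4.79% and 4.82% under anti-CTLA-4. Between the members these shares were 10.2% and 4.33%. Counts this small are a description. Sat1, which acetylates polyamines, had 0.84 and 0.65, and Smox, a spermine oxidase, 0.59 and 0.95. Ass1, which rebuilds arginine from citrulline, and Arg2, the mitochondrial arginase, were higher in the anti-CTLA-4 than in the control members, at 6.66 and 2.33. Control members held only 8 Ass1 UMIs, in 5 of 23 barcodes, where 168 of 316 other C1q-low barcodes had it. Under anti-CTLA-4 it was in 54 of 79 members and 66 of 115 other C1q-low barcodes. The low share of Ass1 was thus that of the control members. Slc7a2, an arginine transporter, had 10 UMIs in the control members and ratios of 5.23 and 5.15, the former 1.57 without 1 barcode.

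Of the inflammatory cytokine list, 0 of 12 measured genes were at least 2-fold higher and 2 lower in the control library, and 2 of 11 higher and 1 lower in the other. Shares over all genes tested were 5.86% higher and 12% lower in the control library, and 4.79% and 4.82% in the other. Counts this small are a description. Il1b, the interleukin-1 beta gene, had ratios of 0.61 and 0.29 against other C1q-low barcodes, and 0.37 between anti-CTLA-4 and control members. Cd274, the ligand PD-L1, had 0.93 and 1.32, and 2.13 between the members of the libraries. C3, a complement component, was 6.73-fold higher in the anti-CTLA-4 members. Hspa8 and Fos, genes of heat and dissociation stress, had 0.68 and 0.60 in the control library, and 0.75 and 0.53 under anti-CTLA-4.

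Members were also compared with the C1q-high barcodes with Arg1 or Nos2. Of 1476 genes, 0.474% (7) were at least 2-fold higher in members of both libraries and 0.813% (12) at least 2-fold lower. Ifitm1, an interferon-induced membrane protein, had ratios of 5.54 and 29.6 and Pgf 5.44 and 10.4. Without their top barcodes these were 3.56 and 13.6, and 2.80 and 6.70. Cxcl3, a neutrophil chemokine, had 2.60 (1.18 without 1 barcode) and 2.33, and S100a4, a calcium-binding protein of motile cells, 1.83 and 2.65. Plac8 had 4.60 and 2.93, but the control ratio without 1 barcode was 0.564. In the anti-CTLA-4 library Plac8 lay between the C1q-low barcodes without Arg1 or Nos2 and the C1q-high ones with, at 3.0 per 10000 against 16.4 and 1.0.

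Folr2, the folate receptor of resident macrophages, had 0.283 and 0.043, Apoe, the lipid carrier, 0.541 and 0.182, and Cbr2 0.481 and 0.013. Serpinb6a, a protease inhibitor, had 0.204 and 0.224. Fabp5, higher in members than in other C1q-low barcodes, had 0.473 and 0.529 here, and 0.690 and 0.700 without its top barcode. Ccl5, a T cell chemokine, had 0.246 and 0.478, which became 1.27 and 0.789 without its top barcode. Ctss and Cd63, lysosomal genes, had 0.569 and 0.463 in the control library and 0.509 and 0.482 in the other. C1q counts split these populations, so genes that accompany C1q in macrophages are a description here. MHC class II genes had medians of 0.41 in the control library and -0.84 in the anti-CTLA-4 library, and tissue macrophage markers -0.47 and -2.46.

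**Figure D5:**
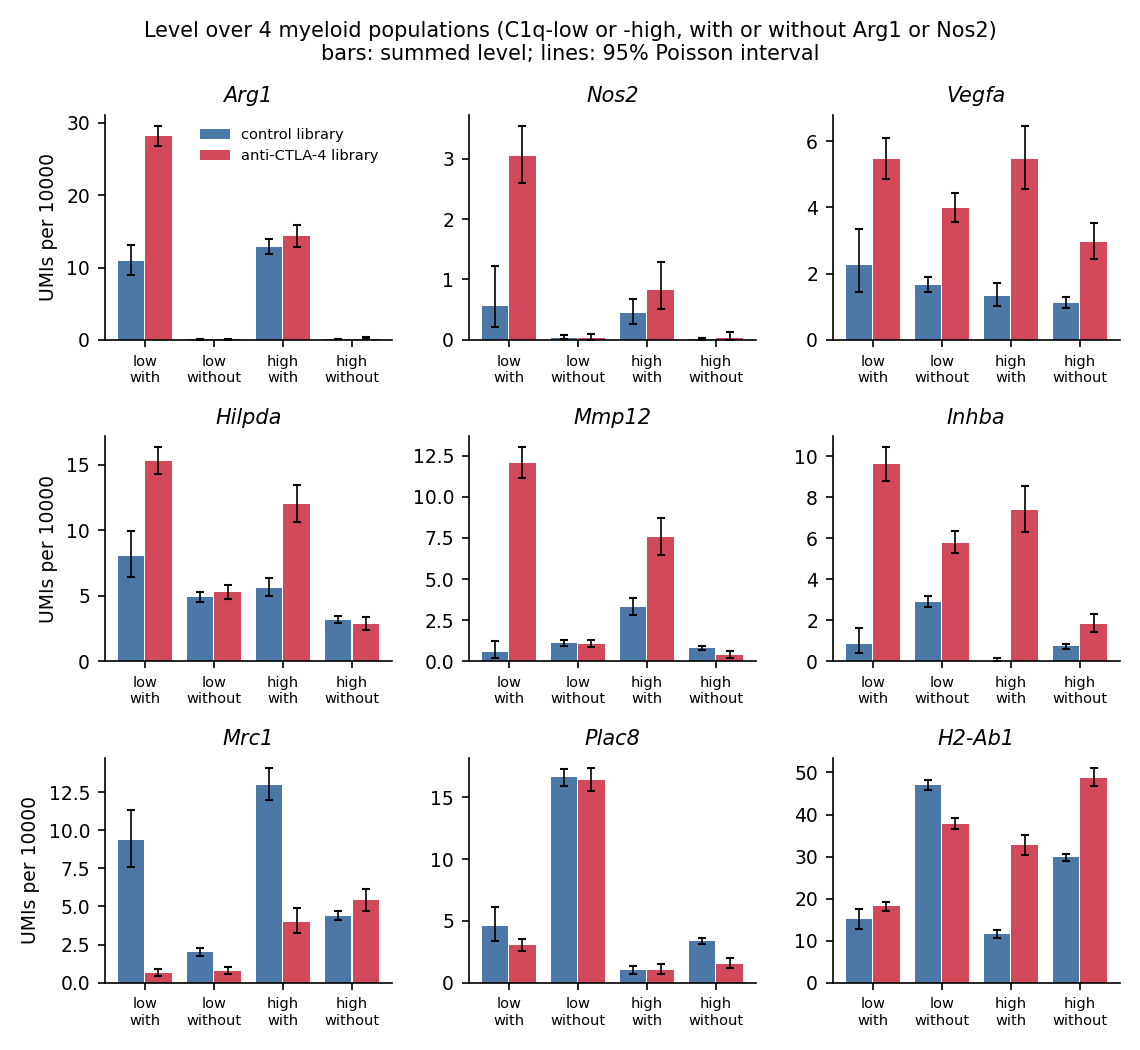
Level in UMIs per 10000 (y axis) of 9 genes in the 4 myeloid populations of each library, with 95% Poisson intervals for counting error. Mmp12 in the anti-CTLA-4 library is at 12.1 in members and 7.5 in the C1q-high population with Arg1 or Nos2, and Mrc1 in the control library at 9.3 and 13.0.

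Within the anti-CTLA-4 members, the 26 barcodes with both transcripts were set beside the 51 with Arg1 alone. Of 1467 genes, 7.84% were at least 2-fold higher and 5.93% at least 2-fold lower in the barcodes with both. All barcodes came from 1 library, so these are differences between cells of a single sample. The barcodes with both were the deeper ones, and shares were also taken after thinning to 2000 UMIs, which kept 23 and 40 barcodes.

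Mmp12 was at 28.2 per 10000 in barcodes with both transcripts and 2.77 in those with Arg1 alone, a ratio of 10.2, and 7.52 without the top barcode. Thinned, 11 of 23 and 8 of 40 barcodes had it. Egln3 had a ratio of 15.9 and was in 10 of 23 and 2 of 40 thinned barcodes. Inhba was in 17 of 23 and 16 of 40. The thinned shares of all of these genes were higher in the barcodes with both.

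Other named genes with higher levels there were the following. Atf3, a stress transcription factor, had a ratio of 13.0, Plk2, a stress kinase, 19.5 (9.58 without its top barcode, and in 5 of 23 and 4 of 40 thinned barcodes), and Txnip, which restrains glucose uptake, 8.21. Jun and Sgk1 had 5.59 and 5.09. The chemokine gene Ccl3 had 6.50, but 1.38 without the top barcode, where its neighbour Ccl4 had 4.05. Ccrl2, a chemokine-binding receptor, had 7.30, and 3.70 without its top barcode.

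Other genes were higher in the barcodes with Arg1 alone. S100a4 had a ratio of 0.227 and was in 7 of 23 thinned barcodes with both against 27 of 40 with Arg1 alone. Timp1, an inhibitor of metalloproteases, had 0.050 and Pgf 0.251, which were 0.104 and 0.454 without their top barcodes. Fn1 had 0.341 and Crip1 0.374. Ifitm1 had 0.266, which became 0.854 without its top barcode. Hilpda was in 19 of 23 and 31 of 40 thinned barcodes, and its level was 1.91-fold higher (1.66 to 2.20) in the barcodes with both.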

How the data were processed

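Single-cell 5′ libraries (10x Genomics, 5000 cells targeted) were processed by the authors with Cell Ranger 5.0.0 on mm10 (GRCm38), per the submitters' processing notes. For the gene annotation, the release is not given in the sources used here. Deposited values are raw UMI counts of 32285 features, summed here to 32245 gene symbols. T and B cell receptor tables served only to count members with a contig (0 of 23 and 1 of 79). Doublets were scored with scanpy 1.11.5: 2 and 1 members were marked and kept. Counts were summed per population in Python 3.11.15 with numpy 2.4.6, pandas 2.3.3 and scipy 1.17.1. Levels are UMIs per 10000 with 95% Poisson intervals, ratios have exact conditional binomial intervals, and shares Clopper-Pearson intervals, all for counting error only. With 1 library per group no test was run. The ratio intervals and the 2-fold rule were tried on simulated Poisson sums. These sums do not mimic genes with many UMIs in 1 barcode. A gene was counted as 2-fold where its ratio was at least 2 or at most 0.5 with at least 50 UMIs, without the genes of the rule. Genes named are the 10 in each direction with the interval bound farthest from 1 and at least 10% of barcodes detected; within each of 20 lists, the 2 farthest and the 2 with most UMIs; other genes were chosen after their values were seen. The members and all lists were chosen with earlier results of these data known. The alternatives tried were 13 planned and 2 added after the data were seen.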

Additional observations from a re-analysis of the deposited data

Results flagged for a closer look

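For 7 genes the members lay on opposite sides of the C1q-low barcodes without Arg1 or Nos2 in the libraries. This difference was not tested, since each group is 1 library. Apoe, the lipid carrier, had a ratio of 2.288 in control and 0.6101 in anti-CTLA-4 members. Selenop, the selenium carrier, had 2.376 and 0.3156. Fcgrt, the receptor that recycles antibodies, had 2.547 and 0.3316. Apoe, Selenop and Fcgrt, all genes of mature macrophages, were above the other C1q-low barcodes in the control library alone. Other macrophage genes, such as Pf4 and Maf, were above them in both libraries.

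In the other direction, Cd9 had 0.1992 in the control library and 1.825 in the anti-CTLA-4 library, and Inhba 0.2911 and 1.661. Sdc1 and Ly6i had no UMI in the control members, a ratio of 0, while anti-CTLA-4 members had 1.841 and 1.597. The control members held 106179 UMIs over 23 barcodes, so genes of low level are thinly measured there.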

How the results depend on the processing

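The ratio of the share of gated barcodes that met the rule, 8.46, was between 5.36 and 9.48 under every other setting except a limit of 5 Arg1 and Nos2 UMIs, where it was 20.8. The main counts of 2-fold genes were 181 higher and 77 lower between anti-CTLA-4 and control members, and 20 higher and 53 lower in both libraries against C1q-low barcodes without Arg1 or Nos2. With a limit of 5, which kept 7 and 59 members, 280 were higher and 117 lower between the libraries and 12 higher in both. Thinned to 3000 UMIs, which kept 13 and 45 members, the 4 counts were 63, 40, 9 and 21. With at least 200 UMIs per gene they were 38, 16, 6 and 12, and with at least 10 UMIs 1106, 658, 174 and 198, since fewer or more genes were then tested. With a limit of 1, 28 genes were lower in both. With equal weight per barcode 138 were lower between libraries. With free RNA taken off, 120 were lower between libraries and 31 higher in both. With each gene's top barcode left out, added after the data were seen, these were 36 and 4. The causes were not tested. Of 840 log2 ratios of 60 named genes over 14 settings, 726 moved by less than counting error, 111 moved by more and 3 turned. Of 820 list medians, 772, 39 and 9 did. The turned values, as log2, are these. Between anti-CTLA-4 and control members, hypoxia was -0.42 and dissociation stress 0.063 with a limit of 5, interferon-gamma was -0.013 with a limit of 1 and -0.0010 with at least 10 UMIs, and Ccl2 was 3.12 with free RNA taken off. Against C1q-low barcodes without, the stress response list of the control library was 0.050 with a limit of 5, 0.70 when thinned and 0.24 with at least 200 UMIs. Fn1 there was -0.43 with a limit of 5 and -0.31 when thinned. The matrix list of the anti-CTLA-4 library was -0.22 when thinned and -0.11 with at least 200 UMIs. No paired analysis was possible because each group is 1 library.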

Other observations

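Of 5 measured iron handling genes, 2 were at least 2-fold higher and 0 lower in the anti-CTLA-4 than in the control members. Over all genes tested between these members, 10.2% were higher and 4.33% lower. Fth1 and Ftl1, the ferritin chains that store iron, were at 582.7 and 254.2 UMIs per 10000 in the anti-CTLA-4 members and 282.4 and 106.9 in the control members. C1q-low barcodes without Arg1 or Nos2 were at 436.1 and 194.7 in the anti-CTLA-4 library and 326.8 and 99.3 in the control library. Both genes were thus higher in the anti-CTLA-4 members than in these barcodes. In the control library Fth1 was lower in members. Ftl1 was close to the other barcodes there, and 220 of its 1135 UMIs in members were in 1 barcode. Txn1, thioredoxin, and Prdx5, a peroxidase, had ratios of 2.61 and 2.47 between the libraries' members. Of 15 measured genes of oxidant production and defence, 5 were at least 2-fold higher and 1 lower in that comparison. The proliferation list summed to 666 UMIs in the anti-CTLA-4 members (12.2 per 10000), of which 202 were in 1 barcode, and to 98 in the control members (9.23 per 10000). In C1q-low barcodes without Arg1 or Nos2 it was at 5.43 and 9.08 per 10000. Against those barcodes 2 of 4 measured genes were at least 2-fold higher in the anti-CTLA-4 library, among them Tubb5, a tubulin, at 2.01. In the control library 0 of 5 were. Over all genes tested these shares were 4.79% and 5.86%. In the anti-CTLA-4 members with Arg1 alone, 1 barcode held 43.6% of the 163 Tubb5 UMIs, so the ratio of Tubb5 leans on that barcode.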
